A study of Homo sapiens with 8 samples.

Results

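The genes described here are the 10 that make, interconvert and regulate polyamines: ODC1, AMD1, SRM, SMS, SAT1, AZIN1, OAZ1, OAZ2, PAOX and SMOX. They were chosen by name, by matching the Ensembl identifiers of the table to gene symbols, and all 10 were among its 58884 genes. All 10 also passed the filter of a mean of at least 10 normalised counts, as 17194 genes did. RNA was sequenced from C4-2, an established human line of castration-resistant prostate cancer derived from LNCaP cells, grown in RPMI medium with serum. The 4 treated libraries came from cells given 1 µM DTHIB (also called E12) for 48 h, and the 4 control libraries from cells given the solvent DMSO for the same 48 h. DTHIB is presented by the submitters as a compound that directly inhibits HSF1, the transcription factor that switches on heat shock genes. All cells were of this 1 line. Nothing in the labels tells whether each library had its own culture, so the p-values below reflect the spread between libraries alone, and that spread may be technical.

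Polyamines (putrescine, spermidine and spermine) are small positively charged molecules that bind RNA and DNA and are needed for cell growth. ODC1 makes putrescine from ornithine, AMD1 makes the aminopropyl donor from S-adenosylmethionine, and SRM and SMS add aminopropyl groups to form spermidine and then spermine. SAT1 acetylates spermidine and spermine, PAOX oxidises the acetylated forms, and SMOX oxidises spermine directly. The antizymes OAZ1 and OAZ2 bind ODC1 protein and send it to the proteasome, and AZIN1, an inactive relative of ODC1, binds the antizymes in its place. The prostate is known for its very high polyamine synthesis and secretion, and both ODC1 and AMD1 are known as androgen-responsive genes there.

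The libraries held 27229291 to 29159387 counted reads under DTHIB and 29499458 to 30926053 under DMSO. All 9 luminal prostate markers examined were expressed, the lowest value in any library being 7463 normalised counts. The basal markers TP63 and KRT5 and the stromal markers DCN and LUM stayed at or below 2.08 normalised counts in every library, and the blood marker PTPRC at or below 3.00. The 5 stromal markers summed to 1224 to 1457 normalised counts under DTHIB and 983 to 1069 under DMSO, nearly all of it COL1A1; their part in the results below was not tested. Normalised counts are relative to the other transcripts of a library, so they measure neither cell number nor total RNA per cell.

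Of the 10 genes, 7 fell and 2 rose under DTHIB, and 1 did not pass the test (limma with a Benjamini-Hochberg adjusted p under 0.05). Among all genes tested 64.6% changed, 33.7% falling and 31.0% rising, so 9 changed genes of 10 stand against a high background. Among better-expressed genes (a mean of at least 50) the background was higher, with 5225 of 13217 falling and 4258 rising. All 4 DTHIB values lay below all 4 DMSO values in 7 of the 10 genes, against 30.8% of all tested genes, and above them in 2, against 27.1%; groups were apart in either direction in 57.9% of all tested genes. The genes that fell were the 4 biosynthetic enzymes ODC1, AMD1, SRM and SMS, the acetylpolyamine oxidase PAOX, the antizyme OAZ1 and the antizyme inhibitor AZIN1. The genes that rose were the catabolic enzymes SAT1 and SMOX. The changes were moderate: none of the 10 reached 2-fold, and their median log2 fold change was -0.17, against -0.01 over all tested genes. Together the 10 transcripts made up 0.341% of normalised counts under DTHIB and 0.414% under DMSO.

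**Figure D1:**
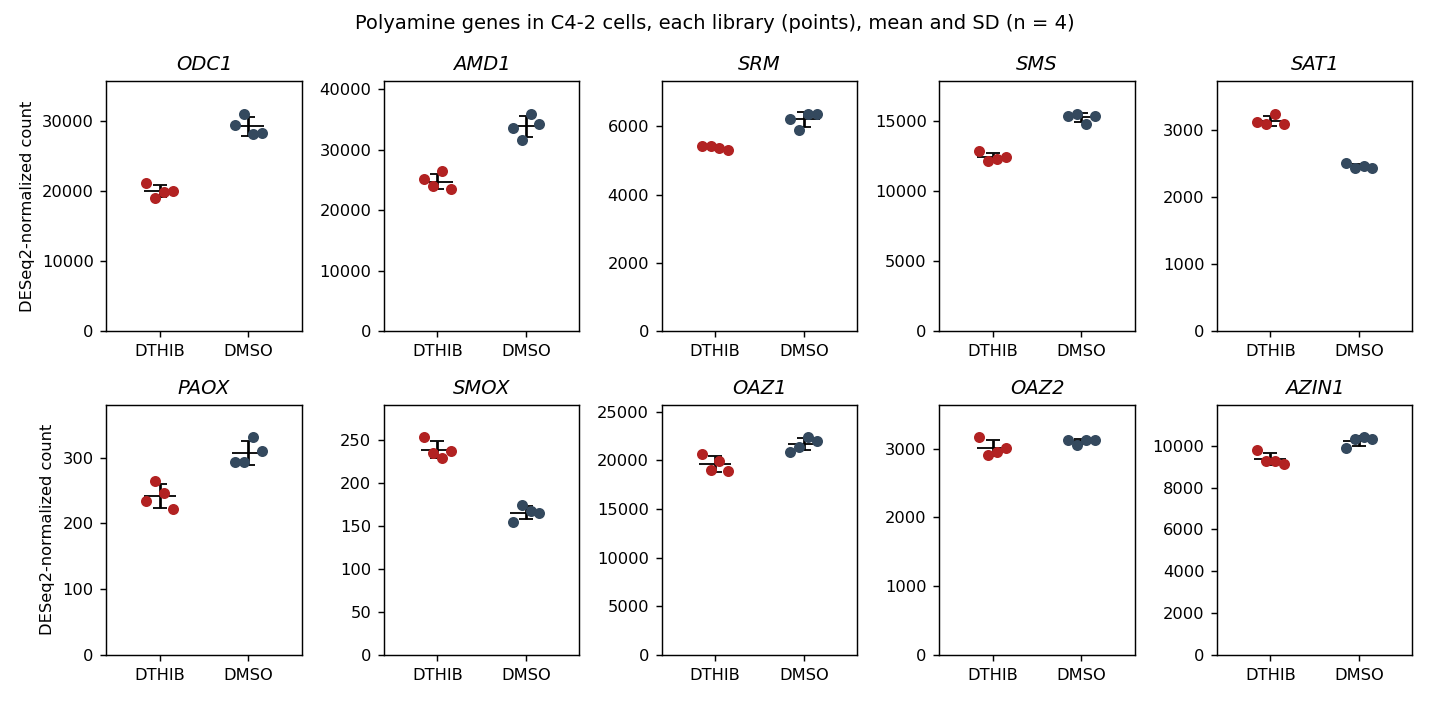
DESeq2-normalized counts of the 10 polyamine genes in each of the 4 DTHIB libraries (left of each panel) and the 4 DMSO libraries (right); points are libraries, horizontal marks the mean and error bars the SD, and every axis starts at 0. The DTHIB points lie wholly below the DMSO points in ODC1, AMD1, SRM, SMS, PAOX, OAZ1 and AZIN1, wholly above them in SAT1 and SMOX, and among them in OAZ2.

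Short promoter sequences are shown for SRM and ODC1, since they are the biosynthetic genes that hold the E-box CACGTG, the site bound by MYC and related factors, in the windows examined. RefSeq windows on GRCh38.p14, 250 bases before to 50 after a transcript start, were found for 7 of the 10 genes in 10 windows; AZIN1, PAOX and SMOX had none. The SRM upstream region (chr1:11060019-11060268, minus strand) and 30-base sites around the ODC1 E-boxes (chr2:10448024-10448053 and chr2:10447990-10448019, minus strand) read as follows, 5′ to 3′, with the E-box in capitals.
SRM upstream region: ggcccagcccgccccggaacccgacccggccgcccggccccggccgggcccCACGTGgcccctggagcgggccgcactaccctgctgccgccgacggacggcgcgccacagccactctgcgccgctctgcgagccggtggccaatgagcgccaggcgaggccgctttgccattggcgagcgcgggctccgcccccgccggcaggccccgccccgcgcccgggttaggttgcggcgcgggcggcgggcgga
ODC1 first site: ccgggccccgggCACGTGtgcggcgcgcct
ODC1 second site: ggcctgcggagaCACGTGgtcgccgagcgg
The SRM E-box started at -199 relative to the RefSeq start and outside the gene in GENCODE release 29, and both ODC1 E-boxes lay in an intron of that annotation. CACGTG, which reads the same on both strands, occurred in 7.26% of all 35116 RefSeq windows.

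Other motifs were searched on both strands. The HSF1-type pairs GAANNTTC and TTCNNGAA, present in 6.77% and 7.74% of all windows, were not found in the windows of the 7 genes. The ATF4-type element TGATGNAAN (3.61% of all windows) and the full androgen response element (0.0114%) were not found there either. The antioxidant response core TGACNNNGC (13.3% of all windows) occurred once, in the ODC1 window that starts furthest upstream, in an exon of GENCODE release 29. TATAAA (11.5% of all windows) occurred once, at OAZ1. A match is a string of letters and not evidence of binding, and the absence of a match says only that the letters are not in these windows.

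The transcripts spanned a wide range of abundance. Per kilobase of merged exons, ODC1 averaged 6734 ± 291 normalised counts under DTHIB and 9824 ± 455 under DMSO (SD, n = 4 libraries per group here and below), and 99.4% of tested genes lay below its mean level. Next came SMS with 5752 ± 143 under DTHIB and 7072 ± 147 under DMSO, and OAZ1 with 5718 ± 244 and 6308 ± 186 in the same groups. Under DTHIB the levels of SMS and OAZ1 differed by less than their spread. AMD1 followed at 3517 ± 186 per kilobase under DTHIB and 4817 ± 252 under DMSO, then SRM at 2833 ± 33.0 and 3270.4 ± 118, AZIN1 at 1457 ± 44.3 and 1592 ± 38.2, and SAT1 at 1257 ± 28.8 and 985 ± 13.6. OAZ2 had 392 ± 14.7 under DTHIB and 405 ± 4.71 under DMSO. The oxidases were scarce, with PAOX at 106 ± 8.12 under DTHIB and 135 ± 7.83 under DMSO, and SMOX at 81.1 ± 3.41 and 56.2 ± 2.69; 50.8% of tested genes lay below the mean level of PAOX. The order was the same in both groups. With the longest annotated transcript as the length, SAT1 stood above AZIN1 and the rest of the order held; no source used here names the annotation used for counting.

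ODC1, the first and most regulated enzyme of the pathway (chromosome 2, 10439968 to 10448504, minus strand; all positions are GRCh38), fell the most. Its normalised counts were 21111, 19008, 19840.1 and 19989 in DTHIB replicates 1 to 4, against 29384, 30981, 28069 and 28201 in DMSO replicates 1 to 4. The highest DTHIB library was far below the lowest DMSO library. The means were 19987 ± 865 under DTHIB and 29159 ± 1351 under DMSO, which is a change of -0.54 on the log2 scale (SE 0.036; limma adjusted p = 8.63e-10). That change was larger in size than in 76.3% of tested genes. ODC1-DT, a non-coding RNA read in the opposite direction whose start lies 189 bases from that of ODC1, was looked at after its values were seen. It had 422 ± 25.6 normalised counts under DTHIB and 549.6 ± 32.4 under DMSO, or -0.38 on the log2 scale (limma adjusted p = 3.12e-05).

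AMD1, adenosylmethionine decarboxylase (chromosome 6, 110874770 to 110895713, plus strand), had 25073, 23989, 26388 and 23414 normalised counts under DTHIB. In DMSO it had 33609, 31639, 35923 and 34232. The groups did not overlap, and within each group the spread was the widest of the 4 biosynthetic genes, a coefficient of variation of 5.30% under DTHIB and 5.23% under DMSO. In DMSO, replicate 2 held the highest ODC1 value and the lowest AMD1 value. AMD1 fell by 0.45 on the log2 scale (SE 0.040; limma adjusted p = 3.38e-08), to 24716 ± 1309.7 under DTHIB, against 33850 ± 1769 under DMSO.

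The aminopropyl transferases fell less. SMS, spermine synthase (X chromosome, 21940573 to 21994835, plus strand), had 12834, 12115, 12282 and 12469 normalised counts under DTHIB, against 15391, 15528, 14810.4 and 15369 under DMSO. The change was -0.30 in log2 units (SE 0.028; limma adjusted p = 6.15e-08). SRM, spermidine synthase (chromosome 1, 11054584 to 11060024, minus strand), had 5430.5, 5424, 5359 and 5297 normalised counts under DTHIB. Under DMSO it had 6203, 5893, 6361 and 6372. The DTHIB libraries were tightly grouped for SRM, with a coefficient of variation of 1.16%, and all lay below the lowest DMSO library, replicate 2. SRM fell by 0.21 on the log2 scale (SE 0.030; limma adjusted p = 1.25e-05), a size that became -0.12 under quantile normalisation. ODC1, AMD1 and SRM are known as MYC targets. MYC rose in the same libraries, with 9590.1 ± 517 normalised counts under DTHIB and 7940.5 ± 135 under DMSO (log2 fold change 0.27, limma adjusted p = 2.80e-06). MYC protein and its activity were not measured, and a part of MYC in the changes described here was not tested.

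**Figure D2:**
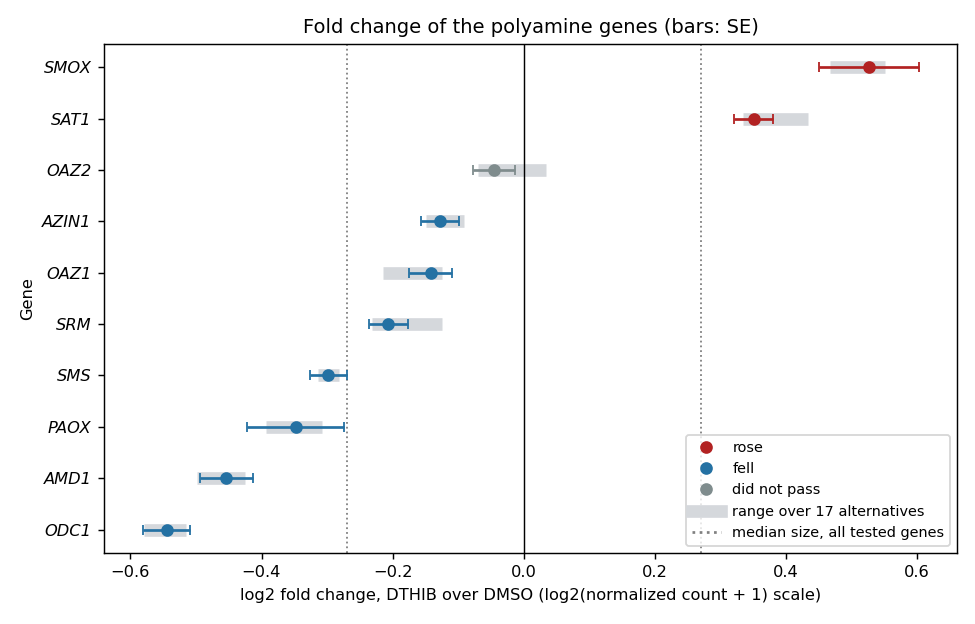
Log2 fold change of each polyamine gene, DTHIB over DMSO, on the log2(normalized count + 1) scale; points are the limma estimates, thin bars their SE, grey bars the range over 17 alternative analyses, and dotted lines mark 0.27 on either side of 0, the median size of change over all tested genes. ODC1 and AMD1 lie lowest, SMOX and SAT1 highest, and only the grey bar of OAZ2 crosses 0.

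SAT1, spermidine/spermine acetyltransferase (X chromosome, 23783173 to 23786226, plus strand), rose. Its normalised counts were 3117, 3094, 3246 and 3098 under DTHIB, against 2506, 2434, 2466 and 2435 under DMSO. The groups were far apart and each was narrow. The means were 3139 ± 72.0 under DTHIB and 2460.5 ± 34.0 under DMSO, an increase of 27.6%, or 0.35 in log2 units (SE 0.030; limma adjusted p = 2.11e-08).

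The oxidases moved in opposite directions. SMOX, spermine oxidase (chromosome 20, 4120980 to 4187747, plus strand), had 253, 236, 229.7 and 237 normalised counts under DTHIB, against 155, 174, 168 and 165 under DMSO. It rose by 44.3%, the largest rise of the 10 genes, or 0.53 in log2 units (SE 0.076; limma adjusted p = 1.16e-05). PAOX, which oxidises acetylated polyamines (chromosome 10, 133379234 to 133391694, plus strand), had 233, 265, 246 and 221 normalised counts under DTHIB, against 293, 294, 331 and 311 under DMSO. PAOX thus changed by -0.35 in log2 units (SE 0.074; limma adjusted p = 0.00056). For these scarce transcripts the spread was close to what counting alone gives. The coefficient of variation of SMOX was 4.20% under DTHIB and 4.78% under DMSO, where counting alone gives 6.53% and 7.65%. For ODC1 the same figures were 4.33% and 4.63%, where counting alone gives 0.714% and 0.577%.

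The regulators of ODC1 protein changed little. OAZ1, antizyme 1 (chromosome 19, 2269509 to 2273490, plus strand), had 20676, 19016, 19986 and 18916 normalised counts under DTHIB. Under DMSO it had 20918, 21422, 22375 and 21981. The highest DTHIB library and the lowest DMSO library, replicate 1 in each group, nearly met. OAZ1 fell by 0.14 on the log2 scale (SE 0.033; limma adjusted p = 0.00113), and by 0.21 under quantile normalisation. GENCODE release 29 places another protein-coding gene, AC005258.1, over OAZ1 on the same strand. It was listed at 0 in every library, and no source used here tells how shared reads were counted.

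AZIN1, the antizyme inhibitor (chromosome 8, 102826357 to 102893864, minus strand), had 9784, 9279, 9253 and 9145 normalised counts under DTHIB, against 9865, 10322, 10396 and 10337 under DMSO. Replicate 1 was the highest of the DTHIB libraries and the lowest of the DMSO libraries, and the groups stayed apart by a narrow margin. AZIN1 fell by 0.13 on the log2 scale (SE 0.029; limma adjusted p = 0.00111), to 9365 ± 285 under DTHIB, against 10230.0 ± 246 under DMSO. An antisense RNA that overlaps it, AZIN1-AS1 in GENCODE release 29, averaged 0.734% of the AZIN1 level.

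OAZ2, antizyme 2 (chromosome 15, 64687573 to 64703281, minus strand), was the gene that did not pass. It had 3163, 2904, 2954 and 3012 normalised counts under DTHIB, against 3121, 3049.8, 3125 and 3119 under DMSO. DTHIB replicate 1 was the highest of all 8 libraries and the other DTHIB libraries were the 3 lowest, so the groups overlapped. The estimate was -0.05 in log2 units (SE 0.032; limma adjusted p = 0.221), and adjusted p ranged from 0.0583 to 0.468 over 17 alternatives.

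The table that the authors deposited from DESeq2, made from the same 8 libraries, gave 9 of the 10 genes an adjusted p under 0.05. The share of all genes was not counted in that table. DESeq2 run again on the recovered reads put 10283 of 17194 tested genes under that threshold. The log2 fold changes in the authors' deposited table ran from -0.54 (ODC1) to 0.51 (SMOX), and OAZ2 had an adjusted p of 0.337 there. The 9 pseudogenes named after these genes in the table had at most 9.02 normalised counts in a library.

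Whether functionally matched genes moved apart was examined with 5 ratios formed within each library. By construction, the group difference of a ratio is the difference between the log2 fold changes of its genes given above. The log2 ratio of SMOX over PAOX was 0.12, -0.17, -0.10 and 0.10 in the DTHIB libraries and -0.91, -0.75, -0.97 and -0.91 in the DMSO libraries. In counts, SMOX was thus 0.992 times PAOX under DTHIB and 0.541 times under DMSO. The difference was 0.87 on the log2 scale (SE 0.086), with all 4 DTHIB libraries above all DMSO libraries (two-sided exact permutation p = 0.0286, the smallest that 4 against 4 libraries can give; adjusted over 5 pairs 0.0714). The log2 ratio of ODC1 over AZIN1 averaged 1.09 ± 0.041 under DTHIB and 1.51 ± 0.081 under DMSO, a difference of -0.42 (SE 0.045) with all DTHIB libraries below all DMSO libraries (exact permutation p = 0.0286, adjusted 0.0714).

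The other pairs stayed closer together. OAZ2 over OAZ1 differed by 0.10 (SE 0.030), with 3 of 4 DTHIB libraries above all DMSO libraries (exact permutation p = 0.0571, adjusted 0.0952). SMS over SRM differed by -0.09 (SE 0.042; exact permutation p = 0.0857, adjusted 0.107). ODC1 over AMD1 differed by -0.09 (SE 0.082; exact permutation p = 0.314, adjusted 0.314), and its DMSO libraries covered most of the range of both groups. None of the 5 adjusted values was under 0.05, which does not show that any pair kept its ratio. How often the groups lie apart in ratios of other gene pairs was not counted. Among single tested genes they were apart in 57.9%.

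**Figure D3:**
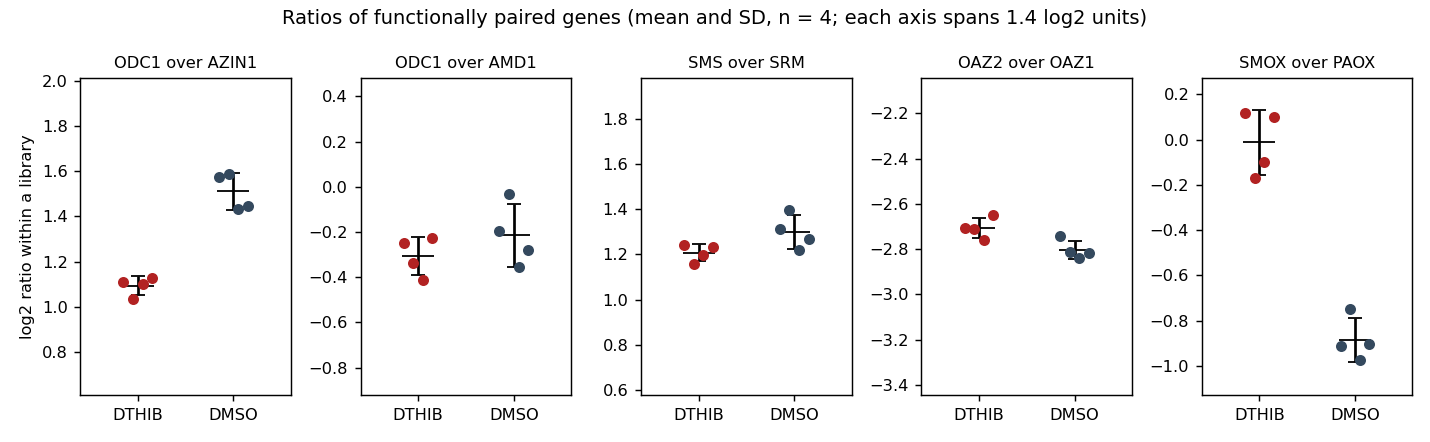
Log2 ratio of 5 pairs of polyamine genes within each library, 4 DTHIB libraries (left) and 4 DMSO libraries (right) per panel, with mean and SD; the panels have different centres and the same span. The groups are wholly apart for ODC1 over AZIN1 and for SMOX over PAOX, and overlap in the other 3 panels. How often the groups lie apart in ratios of other gene pairs was not counted.

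The neighbouring steps of the pathway were described with 5 lists of other genes, 43 in all, of which 36 could be tested; 12 rose, 12 fell and 12 did not pass, against 31.0% rising and 33.7% falling among all tested genes. Of 7 further polyamine enzymes and regulators, 5 could be tested; 3 rose and none fell, with a median log2 fold change of 0.41. Arginase 2 (ARG2), the mitochondrial enzyme that makes ornithine from arginine, rose to 2161 ± 37.6 normalised counts under DTHIB, against 880.0 ± 53.4 under DMSO (2.46-fold; SE of the log2 fold change 0.043; limma adjusted p = 8.69e-14). SAT2, a relative of SAT1, had 1352 ± 41.4 under DTHIB and 1014 ± 36.0 under DMSO (0.41; limma adjusted p = 9.33e-08). AZIN2, a second antizyme inhibitor, had 77.5 ± 2.45 under DTHIB and 42.5 ± 4.44 under DMSO (0.86; limma adjusted p = 2.72e-05). ARG1, the liver-type arginase, had 23.5 ± 2.90 under DTHIB and 31.7 ± 5.39 under DMSO and did not pass (limma adjusted p = 0.0699). ARG2, SAT2 and ARG1 each overlap a protein-coding gene on the opposite strand, VTI1B, SHBG and MED23 in that order. The strand setting of the counting is not given, so reads of such partners may not be separated.

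Of 15 transport genes, 11 could be tested, 5 rose and 1 fell (median log2 fold change 0.05), against 31.0% rising and 33.7% falling among all tested genes. SLC3A2, the heavy chain of several amino acid exchangers, had 8874 ± 15.7 normalised counts under DTHIB and 4113 ± 74.6 under DMSO (1.11; limma adjusted p = 2.15e-15). The arginine importer SLC7A1 had 20012 ± 633 under DTHIB and 11511 ± 526 under DMSO (0.80; limma adjusted p = 1.85e-12). The heparan sulfate proteoglycan GPC1 rose by 0.17, and ATP13A3, a polyamine-transporting ATPase, fell by 0.19 on the log2 scale. The rise of ATP13A2, a lysosomal polyamine exporter named here after its values were seen, was 0.09 (limma adjusted p = 0.0297) and passed in 11 of 17 alternatives.

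Hypusine, an amino acid built from spermidine, is found on eIF5A. EIF5A had 12033 ± 446 normalised counts under DTHIB and 13649.7 ± 291 under DMSO (log2 fold change -0.18; limma adjusted p = 5.20e-05). Its paralogue EIF5A2 fell by 0.40 and the hydroxylase DOHH by 0.30 on the log2 scale. DHPS, deoxyhypusine synthase, had 132 ± 10.9 under DTHIB and 91.6 ± 8.87 under DMSO (0.52; limma adjusted p = 0.000436); it overlaps WDR83 on the opposite strand, as EIF5A does GPS2 and MAT2A does GGCX. Of these 4 genes, then, 3 fell and 1 rose (median -0.24), where 33.7% of all tested genes fell and 31.0% rose.

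Of 9 genes that supply S-adenosylmethionine or recycle methylthioadenosine, the by-product of SRM and SMS, 5 fell and 1 rose (median -0.16), though up to 3 rose under other settings. Among all tested genes 33.7% fell and 31.0% rose. MAT2A, which makes S-adenosylmethionine, had 10896 ± 649 normalised counts under DTHIB and 8314 ± 370.3 under DMSO (0.39; limma adjusted p = 2.09e-07). The salvage enzymes MTAP, ENOPH1 and ADI1 had log2 fold changes of -0.27, -0.33 and -0.22. MTAP, the first enzyme of the salvage route, had 1772 ± 61.4 under DTHIB and 2143 ± 43.2 under DMSO (limma adjusted p = 2.35e-06). The fall of MAT1A, named after its values were seen, passed in 12 of 17 alternatives.

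Of 8 genes of ornithine and arginine supply, 7 could be tested, 2 rose and 3 fell (median -0.05), against 31.0% and 33.7% of all tested genes. Argininosuccinate synthase ASS1 had 4433 ± 207 normalised counts under DTHIB and 3117 ± 98.4 under DMSO (0.51; limma adjusted p = 2.02e-09), and PYCR1, a proline-forming reductase, rose by 0.34 on the log2 scale. GAMT and GATM, enzymes of the creatine route that starts from arginine, fell by 0.48 and 0.74 on the log2 scale. GATM had only 28.9 ± 7.64 under DTHIB and 48.4 ± 10.0 under DMSO. The stress factor ATF4, known to act on several amino acid transport and synthesis genes, had 31972 ± 775 under DTHIB and 14898 ± 479 under DMSO (2.15-fold; limma adjusted p = 9.07e-15). HSF1 had 4897 ± 70.1 under DTHIB and 5260.2 ± 207 under DMSO; it fell by 0.10 in log2 units (limma adjusted p = 0.00841), a call that quantile normalisation ended (adjusted p = 0.933).

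**Figure D4:**
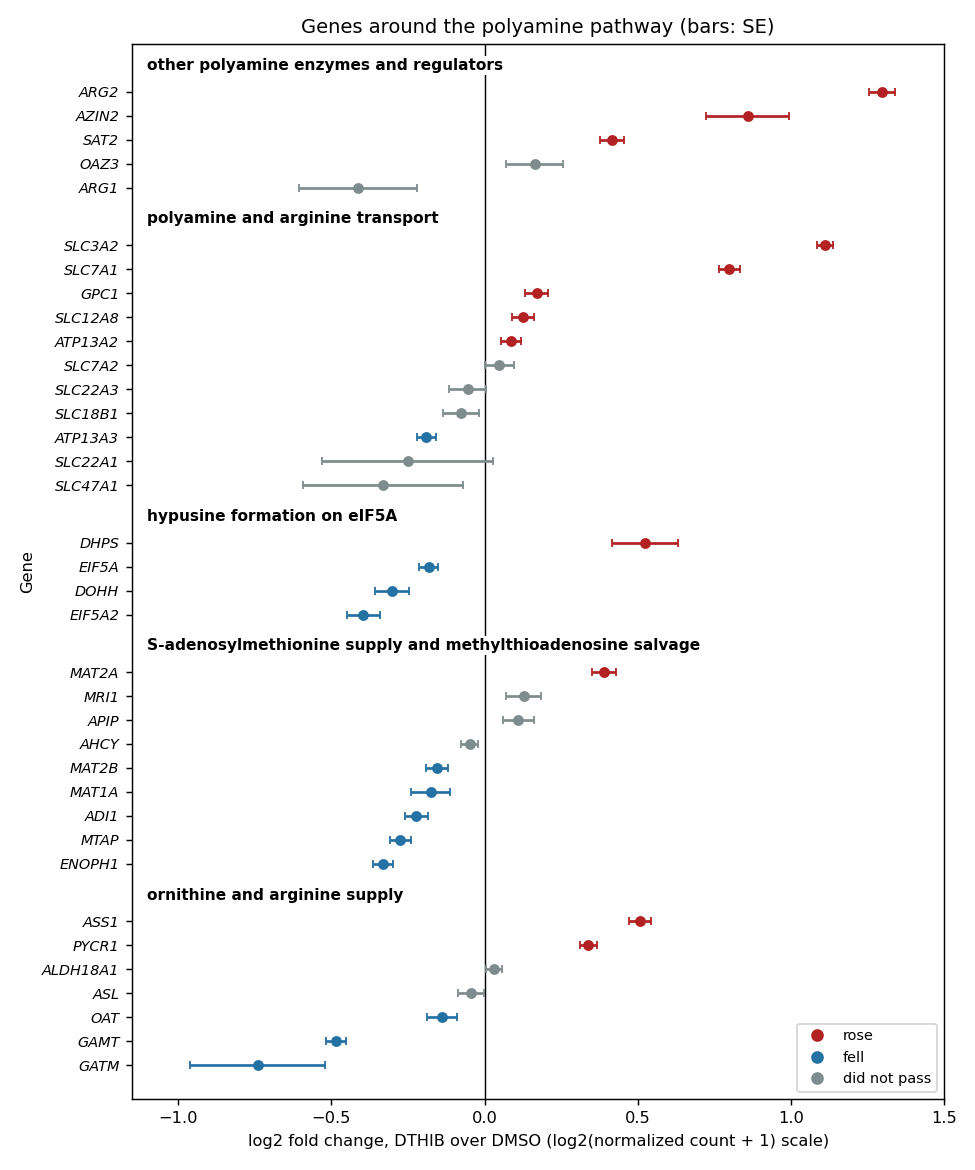
Log2 fold change (DTHIB over DMSO, log2(normalized count + 1) scale) of the 36 tested genes of the 5 lists around the polyamine pathway, with SE; red genes rose, blue genes fell and grey genes did not pass. ARG2, SLC3A2 (1.11), AZIN2 (0.86) and SLC7A1 (0.80) lie furthest to the right, and GATM (-0.74) furthest to the left.

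The genes most like ODC1 and SMOX in pattern were sought among 11640 named genes with a mean of at least 100 normalised counts, by Pearson's r of log2 values over the 8 libraries. The closest to ODC1 were MTIF2, a mitochondrial translation initiation factor (r = 0.998), the splicing factor SF3A3 (0.997) and RFC1 of the replication clamp loader (0.997), with log2 fold changes of -0.39, -0.28 and -0.46. Closest to SMOX were FTCDNL1 (0.995), the ciliary gene TMEM67 (0.995) and ATF6, a sensor of endoplasmic reticulum stress (0.995), with log2 fold changes of 0.58, 0.70 and 0.39. The 8 libraries form 2 groups that differ in most genes, and r was above 0.95 for 1960 genes with ODC1 and for 895 with SMOX, so these coefficients are a description only.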

How the data were processed

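The submitters' processing notes name GRCh38 and, in no order, featureCounts 1.6.3, DESeq2 2.11.40.2, HISAT2 2.1.0, Trimmomatic 0.36.5 and StringTie 1.3.4; settings, annotation release and strandedness were not given in the sources used here. Per gene and library, the deposited signal is by its name a DESeq2-normalized count (reads over a size factor). A second deposited table gives, from DESeq2, the mean signal, log2 fold change, standard error, Wald score, p-value and adjusted p-value; its log2 sign matched DTHIB minus DMSO in 100% of tested genes compared.

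Within each library all values were whole multiples of 1 step (tolerance 0.01, 100% of values), which gave back the reads. All 8 columns were used; 58611 of 58884 genes had GENCODE release 29 positions. The test was limma 3.58.1 under R 4.3.3 on log2(normalized count + 1) (two-sided, expression trend, no covariates, mean of at least 10, Benjamini-Hochberg over 17194 genes); this scale understates changes of low genes. Exact permutation tests used scipy 1.17.1. Libraries of a group differed beyond sampling noise (chi-square per gene 2.39 to 5.21). After the main fit, the test was also run on counts simulated from the means and dispersions of these libraries. Intervals of counting cover counting error only.

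Named genes were the 10 members, up to 4 of each list by adjusted p, the hypusine genes, MYC, ATF4, HSF1 and, for the largest rise and fall, the 3 genes most alike in pattern; others were named after their values were seen. The members, lists and tests were chosen with earlier results of these data known. Alternatives were other pseudocounts (0.5, 5), other filters (none, a mean of 50 or more), TMM, quantile normalization, edgeR 4.0.16 and DESeq2 1.42.0 on the reads, a block for the replicate number, and each library left out.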

Additional observations from a re-analysis of the deposited data

Results flagged for a closer look

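In 5 of 68 groups of 4 libraries (34 named genes, each under DTHIB and under DMSO), 1 library stood apart from the other 3 by more than Dixon's 95% limit; chance gives about 1 in 20 groups. SAT1 was highest in DTHIB replicate 3 at 3246 normalised counts, where the nearest was 3117. AZIN1 was lowest in DMSO replicate 1 at 9865, the nearest being 10322. OAZ2 was lowest in DMSO replicate 2 at 3050, the nearest being 3119. SLC7A1 was highest in DMSO replicate 4 at 12292, the nearest being 11357. ATF4 was lowest in DTHIB replicate 2 at 30812, the nearest being 32308. The calls of SAT1 and AZIN1 held in every fit that left out 1 library, and OAZ2 passed in none.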

How the results depend on the processing

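For 9 of the 10 polyamine genes the direction and the call were the same in all 17 alternatives; OAZ2 passed in none and had a log2 fold change of 0.0340 under quantile normalization (adjusted p = 0.319). The counts of 7 lower and 2 higher were unchanged in these alternatives, and leaving out 1 library gave 10383 to 10883 changed genes, against 11110. The labels do not say whether same-numbered libraries were handled together. No pairing by replicate number showed in the values. Same-numbered libraries had correlations of deviations of -0.07 to 0.01, and 0 of 4 DTHIB libraries matched best with their own number. With the number as a replicate block 11058 genes changed. Among S-adenosylmethionine genes the number that rose was 2 with the replicate block, with edgeR and with DESeq2, 3 with TMM rescaling and with quantile normalization, and 1 to 2 without 1 library, against 1 as reported. Of the transport genes 2 fell with no filter, and of the further polyamine enzymes 1 fell under quantile normalization, where SLC22A3 (0.0166) and ASL (0.0297), neither past the test, also changed sign. The rise of ATP13A2 was lost without DTHIB replicates 1 or 3, or DMSO replicates 1, 2 or 3, and with no filter. The fall of MAT1A was lost without DTHIB replicates 2 or 3 or DMSO replicate 4, and with edgeR and DESeq2. The fall of OAT was lost without DTHIB replicates 2 or 4 and under quantile normalization, and the falls of MAT2B and HSF1 under quantile normalization. The cause was not tested. Without 1 library the smallest exact p of a ratio is 0.0571; the SMOX over PAOX difference then ran from 0.83 to 0.93 and that of ODC1 over AZIN1 from -0.44 to -0.39. Depth limits mainly SMOX, PAOX, AZIN2, DHPS, ARG1 and GATM.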
